A study of Mus musculus with 15 samples.

Results

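The genes that carry a cell through G1 and into S phase were followed in embryonic mouse pancreata. They were 3 D type cyclins (Ccnd1, Ccnd2 and Ccnd3), 2 E type cyclins (Ccne1 and Ccne2), 3 cyclin-dependent kinases (Cdk2, Cdk4 and Cdk6) and 2 kinase inhibitors (Cdkn1b, which encodes p27, and Cdkn2c, which encodes p18). They were picked by name, with earlier results of these data known. These 10 were among the 25292 genes of a count table from poly(A) RNA sequencing. The table held 15 libraries in 5 groups of 3. Whole pancreata of 14.5 days post coitum (dpc) were either wild type (wt) or S1pr2 null. The null mice carried the S1pr2 tm1Rlp allele, in which a neomycin cassette disrupts the gene for a receptor of sphingosine-1-phosphate, and this germline allele is present in every tissue. The explants came from wild-type 14.5 dpc pancreata, for which the methods describe the dorsal bud, and stayed for 2 days in serum-free air-liquid interface (ALI) culture. They received standard medium (control), 15 μM of the S1pr2 antagonist JTE013 (JTE), or 15 μM JTE013 with 50 ng/ml connective tissue growth factor (JTE + CTGF). No explants received CTGF alone. A library could hold a pool of up to 3 organs of 1 genotype or treatment.

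D type cyclins are made in answer to growth signals, and they bind Cdk4 or Cdk6. E type cyclins bind Cdk2 later in G1. Both kinds of complex phosphorylate the retinoblastoma family of pocket proteins, which frees E2F factors to switch on the genes of DNA replication. The p27 protein blocks cyclin-Cdk2 complexes, while p18 and its INK4 relatives bind Cdk4 and Cdk6 themselves. In the embryonic pancreas progenitors divide before they leave the cycle to become endocrine cells, while acinar and mesenchymal cells go on dividing.

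The regions just before the transcription start are shown for the members with the widest range of levels in the kinase and inhibitor families, Cdk6 and Cdkn1b, and for Cdk4, which was added after its motif matches were seen. Each run is the 250 bases 5′ of a RefSeq start on the plus strand of GRCm38.p6, the assembly also called mm10, for Cdk6 chr5:3343643-3343892, for Cdk4 chr10:127063285-127063534 and for Cdkn1b chr6:134920151-134920400. Capitals mark the E-box CACGTG, a word bound by Myc and other helix-loop-helix factors, in the first 2 runs and the GC-box GGGCGG in the last.
Cdk6: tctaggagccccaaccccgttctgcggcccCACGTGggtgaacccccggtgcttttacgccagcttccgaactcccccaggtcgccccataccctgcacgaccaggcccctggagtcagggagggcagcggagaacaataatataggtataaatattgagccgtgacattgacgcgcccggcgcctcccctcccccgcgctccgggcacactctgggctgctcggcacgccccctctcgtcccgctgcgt
Cdk4: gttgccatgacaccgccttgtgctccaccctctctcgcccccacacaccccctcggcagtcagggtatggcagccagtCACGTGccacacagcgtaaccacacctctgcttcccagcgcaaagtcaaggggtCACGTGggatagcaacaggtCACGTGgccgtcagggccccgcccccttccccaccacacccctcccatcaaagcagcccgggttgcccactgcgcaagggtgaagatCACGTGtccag
Cdkn1b: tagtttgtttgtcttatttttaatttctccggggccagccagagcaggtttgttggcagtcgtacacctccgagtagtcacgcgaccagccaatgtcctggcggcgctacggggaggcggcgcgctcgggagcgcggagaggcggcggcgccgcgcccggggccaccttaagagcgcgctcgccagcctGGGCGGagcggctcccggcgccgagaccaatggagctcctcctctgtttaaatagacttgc

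The Cdk4 window held 4 E-boxes, which lay 172, 118, 98 and 11 bases before the start. The Cdk6 window held 1, at 220 bases. Of 32851 mouse promoter windows of the same length 6.02% held at least 1 E-box, and 7 windows held 4 or more. Both strands were searched for this word, for GGGCGG, for the TEAD word CATTCC and for the E2F words TTTCCCGC, TTTCGCGC, TTTGCCGC and TTTGGCGC. The GC-box occurred in 32.7% of windows, and it lay 5 times in that of Cdk2, 4 times in that of Ccne1, 3 times in 1 of the 2 of Cdkn2c, 2 times in 1 and once in the other of Ccnd3, and once in those of Cdkn1b (61 bases before the start) and Cdk4 (80 bases). An E2F word occurred in 1.86% of windows, among them that of Cdk2 (140 bases), and CATTCC in 12.6%, among them 1 of the 2 Ccnd3 windows (17 bases). In the 3 windows shown no match overlapped a match of another motif. Windows of Ccnd1, Ccnd2 and Ccne2 were not analysed here. A match is a description of the letters and not a measured binding site.

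Total counts ranged from 11402804 to 13828737 reads assigned to genes, and 16245 genes carried enough reads to be tested, all 10 members among them. The lowest raw count of a member in any library was 78 reads (Ccne2) and the highest 9066 reads (Cdk4). The S1pr2 null libraries held 1368 to 1609 raw reads of S1pr2 against 796 to 858 in wt. Reads of the gene were thus not lost, and the counts do not say which part of it they came from. For the protein, the paper reports a western blot in which null pancreata of the same stage had no S1pr2 left. Read counts do not measure protein. Values for this group belong to the libraries labelled S1pr2 null. Library JTE 3 stood apart from JTE 1 and 2 over all genes, with a chi-square per gene of 17.2 and 23.2 against 3.01 between the other two. Values of the members whose call or sign changed without it are given with and without it. In whole organs and explants, fewer cells of a type and less RNA per cell cannot be told apart.

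Values in each library are normalised read counts, which are raw counts scaled to the same effective library size. Levels of different genes were compared only per length, as reads per kilobase of exon and scaled library size (RPKM). In wt the order of mean RPKM was Cdk4 (187.3), Ccnd3 (147.6), Ccnd1 (95.4), Ccnd2 (93.2), Cdk2 (38.4), Ccne1 (20.5), Cdkn1b (13.7), Ccne2 (7.05), Cdkn2c (6.51) and Cdk6 (6.44). The libraries of Ccnd1 and Ccnd2 overlapped in this order, as did those of Ccne2, Cdkn2c and Cdk6. Thus Cdk4 was by far the most abundant of the kinases and Ccnd3 the most abundant of the cyclins. In control explants Cdk4 (161.0 RPKM) and Ccnd3 (98.2 RPKM) still led, but Ccnd1 (29.96 RPKM) had dropped to the level of Cdk2 (31.3 RPKM), with which its libraries overlapped. With JTE, Ccnd3 (130.6 RPKM) overlapped with Cdk4 (126.0 RPKM), and Ccnd1 (14.6 RPKM) with Ccne1 (12.8 RPKM). With JTE + CTGF the lowest levels were those of Cdk6 (2.23 RPKM) and Ccne2 (2.18 RPKM), whose libraries overlapped.

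**Figure D1:**
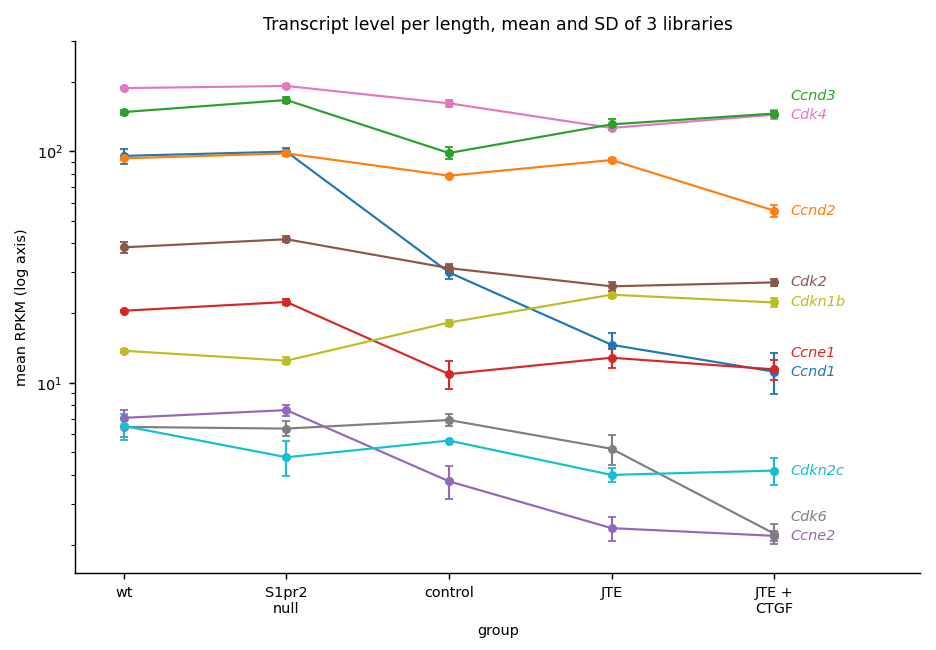
Mean RPKM (log axis) of the 10 genes in the 5 groups, with the SD of 3 libraries as bars; lines join the means of 1 gene. Ccnd1 drops from 95.4 RPKM in wt to 11.2 RPKM with JTE + CTGF, while Cdkn1b runs from 13.7 to 22.2 RPKM and Cdk6 is at 2.23 RPKM only with JTE + CTGF.

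Ccnd1 (chr7:144929931-144939869, minus strand, 5 exon blocks), the cyclin that answers most directly to mitogens in many cells, had the widest range of the 10 genes. Its highest group mean exceeded its lowest by 8.92 times. The wt libraries held 4978, 4324 and 4474 normalised reads and the S1pr2 null libraries 4983, 4645 and 4742. These 2 groups overlapped. The control explants held 1501, 1330 and 1493, the JTE explants 781, 715 and 608, and the JTE + CTGF explants 440.2, 652 and 519. Every control library lay below every fresh pancreas and above every treated explant, and the 2 treated groups overlapped. The wt and S1pr2 null groups did not differ past the threshold (log2 fold change 0.06 ± 0.10 SE, adjusted p = 0.697). All adjusted p-values are from edgeR's quasi-likelihood test with Benjamini-Hochberg adjustment over 16245 genes, and a gene was called at an adjusted p below 0.05.

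In culture Ccnd1 fell: control explants were 3.19-fold below wt (log2 fold change -1.67 ± 0.10, adjusted p = 7.2e-10). With JTE it fell by a further 51.4% (log2 fold change -1.04 ± 0.11, adjusted p = 6.21e-07), and JTE + CTGF lay 2.68-fold below control (-1.42 ± 0.11, adjusted p = 1.62e-08). From JTE to JTE + CTGF the mean fell by 23.3% (-0.38 ± 0.11, adjusted p = 0.0179). This last call was lost without JTE 1 (log2 fold change -0.30, adjusted p = 0.0845), without JTE + CTGF 1 (-0.26, adjusted p = 0.0926), without JTE + CTGF 3 (-0.36, adjusted p = 0.0692) and in a fit of those 6 libraries alone (adjusted p = 0.0773). Of the Ccnd1 exon bases 21.3% also lie in exons of LTO1 on the other strand. The sources used here do not state whether counting used the strand, so reads there cannot be assigned with certainty. LTO1 had at most 444 reads in a library.

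Ccnd2 (chr6:127125779-127151048, minus strand, 5 exon blocks) encodes the D type cyclin known from the growth of pancreatic beta cells after birth. It moved up with JTE and down with JTE + CTGF. The control libraries held 5558, 5618 and 5639 normalised reads, the JTE libraries 6699, 6540 and 6409, and the JTE + CTGF libraries 4043, 4144 and 3692. These 3 groups did not overlap. JTE was 16.9% above control (log2 fold change 0.22 ± 0.05, adjusted p = 0.000802), and JTE + CTGF was 1.415-fold below control (log2 fold change -0.50 ± 0.05, adjusted p = 1.51e-07). Between the treated groups Ccnd2 differed 1.65-fold (-0.73 ± 0.05, adjusted p = 4.88e-08). In fresh pancreata the counts were 6535, 6651 and 6806 in wt and 6972, 6852 and 7164 in the S1pr2 null libraries, which did not overlap. That difference was not called (0.07 ± 0.05, adjusted p = 0.304). Control explants were 1.19-fold below wt (-0.25 ± 0.05, adjusted p = 0.000257). Scaling by total counts only moved this last value to -0.39 (adjusted p = 5.51e-06). The exon model of Ccnd2 in the table starts and ends inside that of GENCODE M21 (chr6:127125162-127152193), so reads of the outer parts were not counted, in its RPKM and its share of the D type cyclins too.

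Ccnd3 (chr17:47505051-47599683, plus strand, 7 exon blocks), the third D type cyclin, fell in culture and rose with each treatment. The counts were 3819, 4010 and 3908 in wt, 2575, 2471 and 2765 in control, 3395, 3309 and 3684 with JTE and 3738, 3946 and 3879 with JTE + CTGF. The treated explants all lay above the control explants, and the JTE + CTGF libraries reached the range of wt. JTE raised it 1.33-fold over control (log2 fold change 0.41 ± 0.05, adjusted p = 6.93e-06) and JTE + CTGF 1.48-fold (0.57 ± 0.05, adjusted p = 1.31e-07). Control was 1.503-fold below wt (-0.59 ± 0.05, adjusted p = 7.8e-08). The opposite course of Ccnd1 and Ccnd3 under JTE is seen in the plot of counts by library.

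Ccnd3 was also higher in the S1pr2 null libraries (4538, 4373 and 4326) than in wt, by 12.8% with no overlap (log2 fold change 0.17 ± 0.05, adjusted p = 0.0221). The call was lost without wt 1 (adjusted p = 0.0712), wt 3 (0.0643), S1pr2 null 1 (0.0863) or S1pr2 null 2 (0.052), at log2 fold changes of 0.15 to 0.18. The step from JTE to JTE + CTGF was 0.15 ± 0.05 (adjusted p = 0.0362). It was lost without wt 3 (adjusted p = 0.0508), JTE 1 (0.109), JTE 2 (0.148), JTE + CTGF 2 (0.111) or JTE + CTGF 3 (0.0929), with total-count scaling (0.169) and in a fit of those 6 libraries alone (0.0877). Without JTE 3 it was 0.24 (adjusted p = 0.00386). Of the exon bases of Ccnd3, 16.7% also lie in exons of Bysl on the other strand, and 2.08% of its 50-base words occur at another locus, among them a Ccnd3 pseudogene, so its counts carry that uncertainty. Bysl had at most 705 reads in a library.

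**Figure D2:**
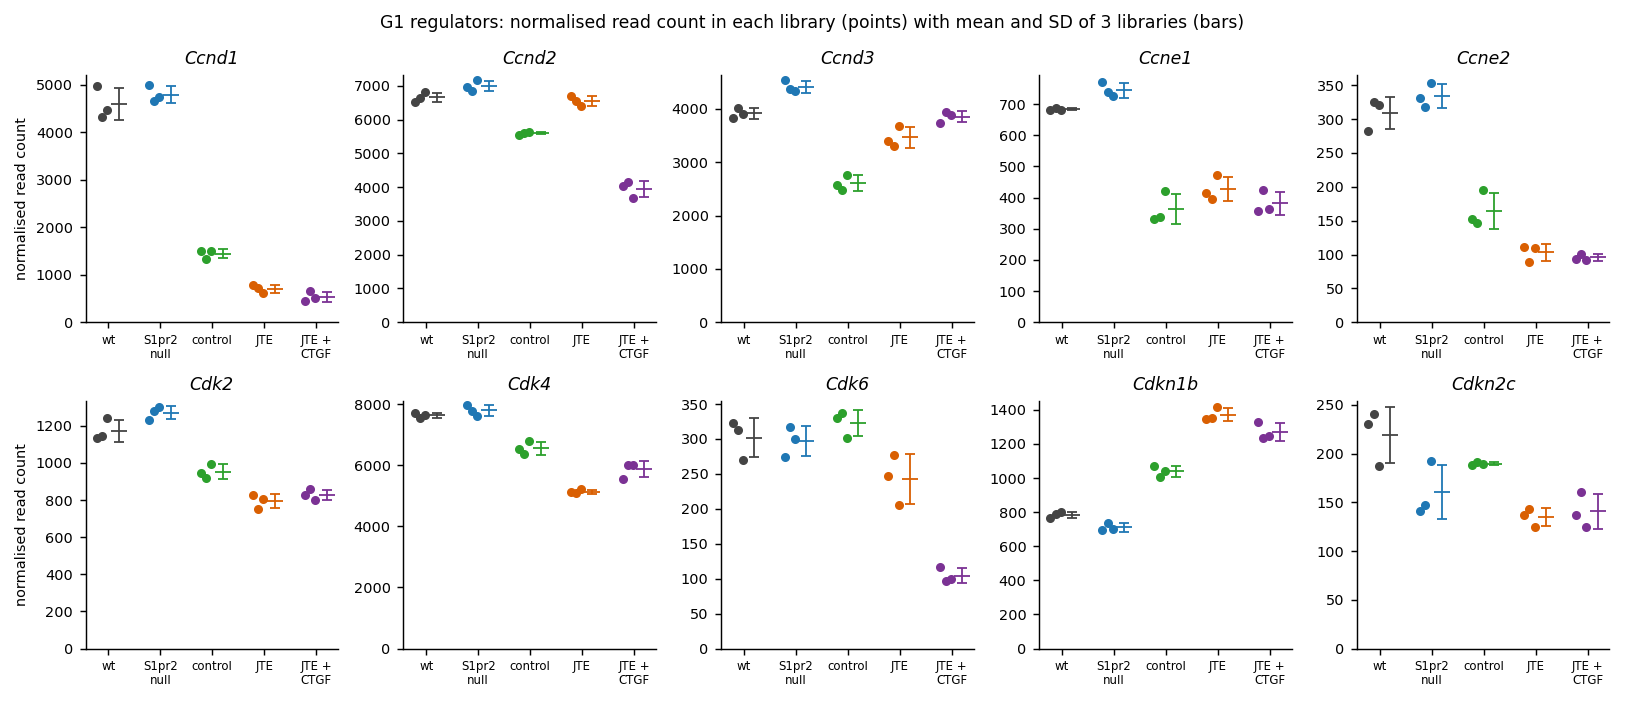
Normalised read count of the 10 genes in each of the 15 libraries (points), with the mean and SD of 3 libraries beside them; each axis starts at 0. Ccnd1 lies at 4324 or more in both fresh groups and at 781 or less in both treated groups, Ccnd3 rises from control to JTE + CTGF, and Cdk6 lies between 97.3 and 117 with JTE + CTGF and at 206 or more elsewhere.

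All 3 D type cyclins fell in culture, while with JTE Ccnd1 fell and the other two rose, and with JTE + CTGF only Ccnd3 of the 3 was above control. The summed D type cyclin RPKM was 339, 334 and 336 in wt, 372, 357 and 362 in the S1pr2 null libraries, 206, 199.4 and 214 in control, 238, 231 and 241 with JTE, and 207, 220.3 and 209 with JTE + CTGF. The sum was thus lower in every explant than in every fresh pancreas. Of this sum Ccnd1 made up 28.4% ± 1.91 (SD, n = 3) in wt, 27.4% ± 0.416 in S1pr2 null, 14.5% ± 0.641 in control, 6.16% ± 0.822 with JTE and 5.25% ± 0.862 with JTE + CTGF. Ccnd3 made up 43.9% ± 1.39 in wt, 47.5% ± 1.03 in control, 55.2% ± 2.14 with JTE and 68.6% ± 1.32 with JTE + CTGF. Ccnd2 held 38.7% ± 1.34 with JTE and 26.1% ± 1.32 with JTE + CTGF.

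The share of Ccnd1 fell by 8.34 percentage points from control to JTE, with no overlap, and it fell by 13.9 points from wt to control (exact permutation test, two-sided, p = 0.1 for each). With 3 libraries against 3 this p is the smallest the test can give, so no share could pass 0.05. Between JTE and JTE + CTGF the difference of -0.916 points lay within the spread of the libraries (exact permutation p = 0.2), as did that of -1.02 points between S1pr2 null and wt (exact permutation p = 0.7), which turned to 0.056 points without wt 1.

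**Figure D3:**
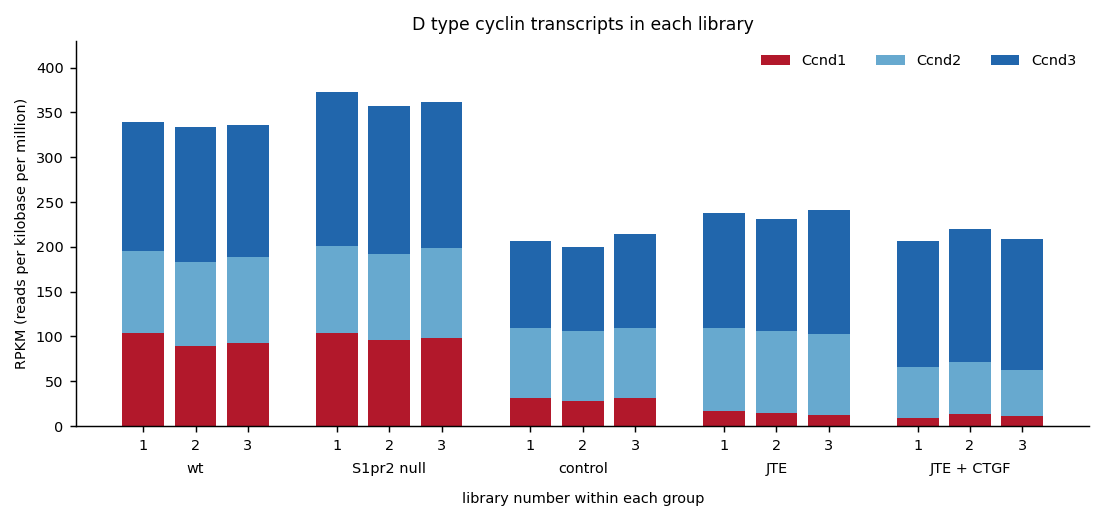
RPKM of Ccnd1, Ccnd2 and Ccnd3 stacked for each of the 15 libraries. The stacks sum to 334 to 372 in fresh pancreata and to 199.4 to 241 in explants, and the Ccnd1 layer thins from 28.4% of the sum in wt to 5.25% with JTE + CTGF.

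Ccne1 (chr7:38097984-38107534, minus strand, 11 exon blocks) and Ccne2 (chr4:11191351-11204779, plus strand, 13 exon blocks) encode the cyclins that activate Cdk2 at the entry to S phase. Both fell in culture, and with JTE they parted. Ccne1 held 682, 687 and 680.4 normalised reads in wt, 331, 339 and 421 in control, 416, 396 and 473 with JTE and 356, 425 and 364 with JTE + CTGF. The 3 explant groups overlapped. Control was 1.88-fold below wt (log2 fold change -0.91 ± 0.09, adjusted p = 1.69e-07), and JTE + CTGF did not differ past the threshold from control (0.07 ± 0.09, adjusted p = 0.542), with a sign that turned without JTE + CTGF 2 (-0.015, adjusted p = 0.909). In the S1pr2 null libraries Ccne1 held 772, 738 and 726, all above wt, and the difference was not called (0.13 ± 0.08, adjusted p = 0.288).

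JTE was called 17.9% above control for Ccne1 (log2 fold change 0.24 ± 0.09, adjusted p = 0.0383). Without JTE 3 the log2 fold change was 0.16 (adjusted p = 0.187), without control 1 it was 0.18 (0.158) and without control 2 it was 0.19 (0.142). The call was also lost with the size factors of DESeq2 (adjusted p = 0.0594), with total counts (0.0825), in DESeq2 itself (0.0798) and in the 6 libraries alone (0.121).

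Ccne2 held 282, 326 and 320.0 normalised reads in wt and 332, 318 and 353 in S1pr2 null, groups that overlapped (log2 fold change 0.11 ± 0.10, adjusted p = 0.452). It held 152, 147 and 195 in control, 111, 88.8 and 109.7 with JTE and 93.8, 100.8 and 92.4 with JTE + CTGF. All treated explants lay below all control explants. With JTE it fell by 37.1% from control (log2 fold change -0.67 ± 0.12, adjusted p = 0.000226) and JTE + CTGF lay 1.72-fold below control (-0.78 ± 0.13, adjusted p = 5.11e-05). Control was 1.88-fold below wt (-0.91 ± 0.11, adjusted p = 2.01e-06). The treated groups did not differ past the threshold (-0.11 ± 0.13, adjusted p = 0.582). Of the Ccne2 exon bases 17.4% also lie in exons of Ints8 on the other strand. Ints8 had up to 1039 reads in a library and Ccne2 at most 419, and how reads in the shared bases were counted is not known.

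Cdk6 (chr5:3343893-3523218, plus strand, 8 exon blocks), a partner of the D type cyclins, was the kinase with the largest range, and its low level was that of the JTE + CTGF explants. The counts were 322, 313 and 270.3 in wt, 274, 317 and 300.3 in S1pr2 null, 330.2, 338 and 302 in control, 247, 277 and 206 with JTE, and 117, 97.3 and 99.5 with JTE + CTGF. The first 3 groups overlapped with each other, the JTE libraries of 247 and 206 lay below all of them, and the JTE + CTGF libraries lay below every other library. JTE + CTGF was 3.09-fold below control (log2 fold change -1.63 ± 0.12, adjusted p = 8.42e-09) and 2.32-fold below JTE (-1.21 ± 0.12, adjusted p = 2.74e-06). JTE alone lay 1.33-fold below control (-0.42 ± 0.11, adjusted p = 0.00341), with a log2 fold change of -0.31 without JTE 3 (adjusted p = 0.0195). Neither genotype (-0.02 ± 0.10, adjusted p = 0.899) nor culture (0.10 ± 0.10, adjusted p = 0.432) gave a call, and the sign of the culture value turned with total-count scaling (-0.05). The sign of the genotype value turned without wt 1 (0.027), wt 2 (0.0031) or S1pr2 null 1 (0.030). The exon model of Cdk6, too, starts and ends inside that of GENCODE M21 (chr5:3341485-3531008). Of its 50-base words 1.02% occur at another locus.

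Cdk4 (chr10:127063534-127067920, plus strand, 6 exon blocks), the abundant partner of the D type cyclins whose window is printed above, was the member of the narrowest range (1.52 times between its highest and lowest group means). It held 7718, 7540 and 7648 in wt, 7967, 7795 and 7627 in S1pr2 null, 6535, 6365 and 6789 in control, 5113, 5085 and 5211 with JTE and 5567, 6009 and 6023 with JTE + CTGF. The explant groups lay in the order control, JTE + CTGF and JTE, with no overlap. With JTE it fell by 21.7% from control (log2 fold change -0.35 ± 0.05, adjusted p = 6.52e-06), and JTE + CTGF lay 14.2% above JTE (0.19 ± 0.05, adjusted p = 0.00434). JTE + CTGF was 1.12-fold below control (-0.16 ± 0.05, adjusted p = 0.00546). This was not called without the filter on low counts (-0.13, adjusted p = 0.0743) or in the 6 libraries alone (-0.14, adjusted p = 0.0745). Control lay 1.163-fold below wt (-0.22 ± 0.05, adjusted p = 0.000553), and -0.36 on the log2 scale with total counts. Fresh groups overlapped (0.03 ± 0.05, adjusted p = 0.675). Of the Cdk4 exon bases 18.6% also lie in exons of Tspan31 on the other strand, which had up to 1945 reads.

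Cdk4 and Cdk6 thus moved in opposite directions between JTE and JTE + CTGF. Cdk6 made up 3.33% ± 0.297 (SD, n = 3) of the RPKM of the 2 kinases in wt, 3.21% ± 0.271 in S1pr2 null, 4.116% ± 0.353 in control, 3.95% ± 0.604 with JTE and 1.53% ± 0.224 with JTE + CTGF. The JTE + CTGF libraries did not overlap with control, from which they differed by -2.58 points, or with JTE, from which they differed by -2.42 points (exact permutation test, two-sided, p = 0.1 for each). JTE overlapped with control (exact permutation p = 0.7), and its difference of -0.162 points turned to 0.156 without JTE 3. The difference of -0.116 points between S1pr2 null and wt (exact permutation p = 0.5) turned to 0.038 without S1pr2 null 1.

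Cdk2 (chr10:128697939-128705051, minus strand, 8 exon blocks), the partner of the E type cyclins, stepped down from fresh pancreata to explants and again with JTE. Its counts were 1133, 1143 and 1242 in wt, 1232, 1280.0 and 1301 in S1pr2 null, 945, 919 and 997 in control, 826, 754 and 807 with JTE, and 826, 858 and 799.5 with JTE + CTGF. The treated groups overlapped with each other and lay below control. With JTE it fell by 16.5% from control (log2 fold change -0.26 ± 0.06, adjusted p = 0.000818) and JTE + CTGF lay 1.15-fold below control (-0.20 ± 0.06, adjusted p = 0.00456). Control was 1.23-fold below wt (-0.30 ± 0.05, adjusted p = 0.000159). Neither S1pr2 null against wt (0.12 ± 0.05, adjusted p = 0.121) nor CTGF against JTE alone (0.06 ± 0.06, adjusted p = 0.487) gave a call.

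Cdkn1b (chr6:134920401-134925513, plus strand, 2 exon blocks) ran against most of the cyclins and kinases. The counts were 766, 786 and 801 in wt, 693, 739 and 701 in S1pr2 null, 1068, 1006 and 1041 in control, 1346, 1351 and 1416 with JTE, and 1329, 1233 and 1244 with JTE + CTGF. Every explant lay above every fresh pancreas and every treated explant above every control explant. Control was 1.32-fold above wt (log2 fold change 0.40 ± 0.05, adjusted p = 2.52e-06), or 0.26 on the log2 scale with total counts (adjusted p = 0.000774). JTE was 1.32-fold above control (0.40 ± 0.05, adjusted p = 3.17e-06) and JTE + CTGF 1.22-fold above it (0.29 ± 0.05, adjusted p = 7.34e-05). The treated groups did not overlap but were not called apart (-0.11 ± 0.05, adjusted p = 0.0895). Without JTE + CTGF 1 they were (-0.15, adjusted p = 0.0398).

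In the S1pr2 null libraries Cdkn1b was 1.10-fold below wt (log2 fold change -0.14 ± 0.05, adjusted p = 0.0461), with no overlap. This call was close to the threshold. It was lost in 16 of 21 alternatives, among them 5 other settings (DESeq2 at 0.0963, total counts at 0.105, no filter at 0.128, the replicate block at 0.067 and the 6 libraries alone at 0.0512, all adjusted p). The rest left out 1 library each: wt 1 (0.053), wt 2 (0.108), wt 3 (0.144), S1pr2 null 1 (0.144), S1pr2 null 3 (0.133), control 1 (0.0501), control 2 (0.0516), control 3 (0.0543), JTE 1 (0.0556), JTE 2 (0.0575) and JTE + CTGF 2 (0.0525). The log2 fold change itself stayed between -0.17 and -0.12.

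Cdkn2c (chr4:109660876-109667189, minus strand, 3 exon blocks), the INK4 inhibitor p18, fell with JTE where Cdkn1b rose. The counts were 230.5, 240.4 and 187 in wt, 141, 148 and 193 in S1pr2 null, 188, 191 and 189.5 in control, 137, 143 and 125 with JTE, and 137, 160.3 and 124 with JTE + CTGF. All treated explants lay below all control explants. With JTE it fell by 28.99% from control (log2 fold change -0.49 ± 0.13, adjusted p = 0.00488) and JTE + CTGF lay 1.35-fold below control (-0.43 ± 0.13, adjusted p = 0.0108). The latter was lost without JTE + CTGF 3 (-0.35, adjusted p = 0.0575). The treated groups overlapped (0.06 ± 0.14, adjusted p = 0.771), and the sign turned without JTE + CTGF 2 (-0.040). Control did not differ past the threshold from wt (-0.21 ± 0.13, adjusted p = 0.165), though it did with total-count scaling (-0.35, adjusted p = 0.0224).

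The largest change of the 10 genes between genotypes was that of Cdkn2c, 1.36-fold lower in the S1pr2 null libraries (log2 fold change -0.44 ± 0.13, adjusted p = 0.0153). The groups overlapped by 1 library each, and the call was lost without wt 1 (-0.41, adjusted p = 0.0526), wt 2 (-0.37, adjusted p = 0.0804), S1pr2 null 1 (-0.36, adjusted p = 0.0765) or S1pr2 null 2 (-0.39, adjusted p = 0.0722).

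Read by comparison, S1pr2 null against wt gave calls for 1 higher member (Ccnd3) and 2 lower ones (Cdkn1b and Cdkn2c), where 12.6% and 13.3% of all genes tested were called higher and lower. The median log2 fold change of the 10 members was 0.065, against -0.0116 over all genes. None met the criterion of the study, which 3.36% of protein-coding genes met. That criterion sets 0.1 as the highest adjusted p, asks for fold changes under 0.6 or over 1.6, and leaves out genes whose mean count stays at or under 100 in both groups. By the calls at an adjusted p below 0.05, 3 members passed in edgeR and 2 in DESeq2. Over all genes edgeR called 4199 of 16245 and DESeq2 3803 of 16463.

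JTE against control gave calls for all 10 members, 4 higher and 6 lower, where 25.9% and 26.2% of all genes were called higher and lower. The 4 were Ccnd2, Ccnd3, Ccne1 and Cdkn1b. The median of the members was -0.31 against 0 over all genes. The criterion of the study was met by 1 member, Ccnd1, and by 9.24% of protein-coding genes. JTE + CTGF against control gave 2 higher members (Ccnd3 and Cdkn1b) and 7 lower ones, beside 28.1% and 33.0% of all genes, with a median of -0.32 against -0.0322. Here 3 members met the criterion (Ccnd1, Ccne2 and Cdk6), as did 13.2% of protein-coding genes. Both comparisons use the same control libraries.

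JTE + CTGF against JTE gave 2 higher members (Ccnd3 and Cdk4) and 3 lower ones (Ccnd1, Ccnd2 and Cdk6), beside 13.6% and 16.8% of all genes. The median was -0.11 against -0.00223, and Cdk6 alone met the criterion, which 1.95% of protein-coding genes met. Without JTE 3 the share of higher genes among all calls of this comparison moved from 44.6% to 52.7% and the median over all genes from -0.00223 to 0.0306. Control against wt gave 1 higher member (Cdkn1b) and 7 lower ones, beside 28.5% and 29.3% of all genes, with a median of -0.27 against -0.0233. The criterion was met by 3 members (Ccnd1, Ccne1 and Ccne2) and by 13.6% of protein-coding genes. In this comparison culture, the days that passed and the starting tissue cannot be told apart. Scaling by total counts alone moved its median over all genes from -0.0233 to -0.167 and the share of higher genes among all calls from 49.3% to 33.0%.

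**Figure D4:**
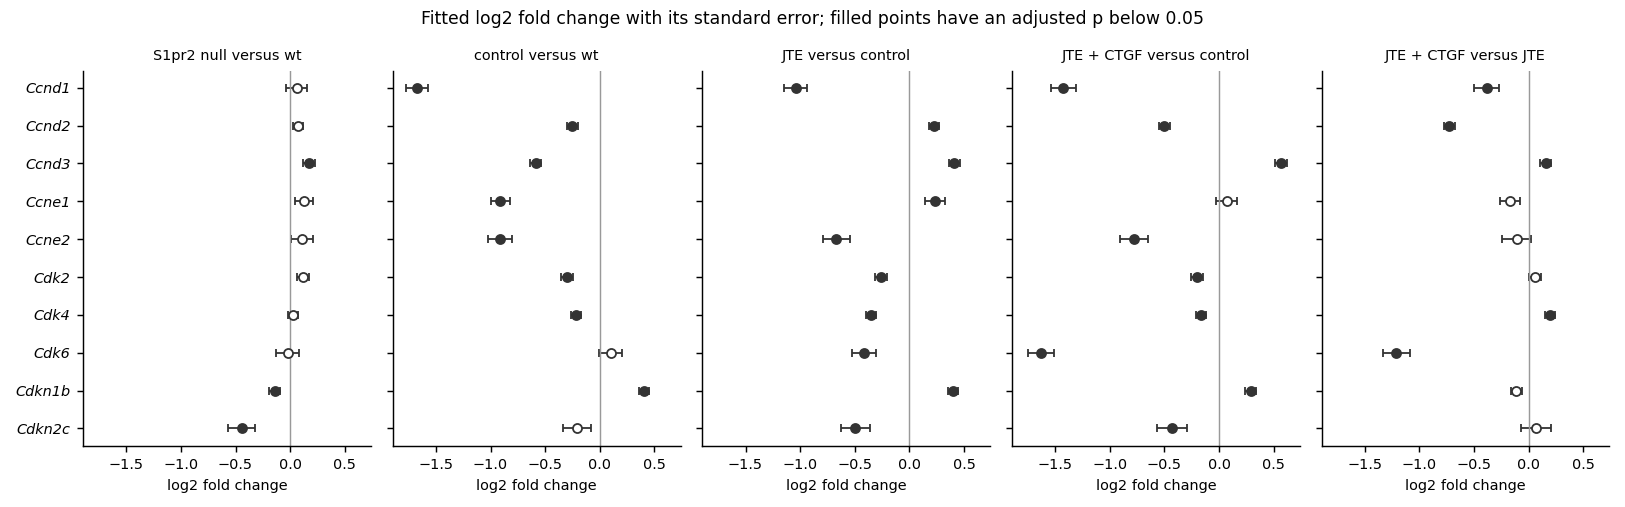
Fitted log2 fold change of each gene with its standard error in the 5 comparisons; filled points have an adjusted p below 0.05 and open points do not. Between genotypes the values lie from -0.44 to 0.17, and the largest changes are Ccnd1 in culture (-1.67) and Cdk6 with JTE + CTGF (-1.63).

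The response to the antagonist was set against the response to the genotype in 1 contrast, (JTE minus control) minus (S1pr2 null minus wt), in which no library enters both differences. The antagonist acted for 2 days on cultured explants, and the allele was compared in fresh whole pancreata. Antagonist and allele therefore cannot be told apart from culture, age and starting tissue in this contrast. Of the 10 members 7 differed, 2 higher and 5 lower, where 21.5% of all genes differed in each direction. Ccnd1 (-1.10 ± 0.15, adjusted p = 1.59e-05), Ccne2 (-0.78 ± 0.16, adjusted p = 0.000851), Cdk4 (-0.38 ± 0.06, adjusted p = 0.000157) and Cdk2 (-0.38 ± 0.08, adjusted p = 0.000848) fell with JTE and had log2 fold changes from 0.03 to 0.12 between genotypes. Cdkn1b ran in opposite directions, lower in the S1pr2 null libraries and higher with JTE (0.54 ± 0.07, adjusted p = 1.17e-05). Ccnd3 was higher in both, and by 0.24 ± 0.08 more with JTE (adjusted p = 0.0167), a difference that was lost with total-count scaling (adjusted p = 0.0631). Cdkn2c was lower in both, and the difference between the 2 responses was -0.05 ± 0.18 (adjusted p = 0.851), which turned in sign without JTE 3 (0.0078), wt 3 (0.054) or S1pr2 null 3 (0.11). Ccnd2 (0.15 ± 0.07, adjusted p = 0.0745) and Ccne1 (0.11 ± 0.12, adjusted p = 0.486) were not called. Ccnd2 was called without JTE + CTGF 3 (adjusted p = 0.0404) and in a fit of the libraries compared (0.0398).

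Cdk6 differed by -0.39 ± 0.15 (adjusted p = 0.0412). This was lost without wt 2 (adjusted p = 0.0505), wt 3 (0.113), S1pr2 null 2 (0.102), S1pr2 null 3 (0.0751), control 1 (0.0722), control 2 (0.0855), JTE 1 (0.0594) or JTE 3 (0.106), at log2 differences between -0.42 and -0.28.

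The genes that G1 regulators act on were described from lists chosen with earlier results of these data known. The counts in these lists stand beside the shares of all genes called higher and lower, which were 12.6% and 13.3% between genotypes, 25.9% and 26.2% with JTE, 28.1% and 33.0% with JTE + CTGF against control, 13.6% and 16.8% against JTE, 28.5% and 29.3% in culture, and 21.5% in each direction between the 2 responses. The S phase list holds 17 genes of DNA replication, among them the Mcm helicase subunits, and the mitosis list 12 genes, among them Mki67, the gene of the proliferation marker Ki-67. JTE lowered all 17 S phase genes, with a median log2 fold change of -0.69 against 0 over all genes, and all 12 mitosis genes (median -0.61). Cdc6, which loads the helicase, fell by 1.28 on the log2 scale (± 0.11, adjusted p = 6.43e-08), and Gins1 of the same machinery by 1.04 (± 0.13, adjusted p = 4.89e-06). Plk1, a mitotic kinase, fell by 1.04 (± 0.09, adjusted p = 6.64e-08).

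With JTE + CTGF all 17 S phase genes (median -0.83 against -0.0322 over all genes) and all 12 mitosis genes (median -0.80) were again below control. Changes of at least 1 on the log2 scale were those of Cdc6 (-1.50 ± 0.11), Mcm5 (-1.29 ± 0.07), Rrm2 (-1.16 ± 0.09), Gins1 (-1.07 ± 0.13), Tk1 (-1.01 ± 0.09) and Mcm7 (-1.01 ± 0.06). In the mitosis list they were those of Mki67 (-1.68 ± 0.07), Plk1 (-1.23 ± 0.09), Bub1b (-1.22 ± 0.08), Cdc20 (-1.21 ± 0.10) and Top2a (-1.01 ± 0.08). Against JTE, 6 of 17 S phase genes and 5 of 12 mitosis genes were lower with CTGF and none was higher. Rrm2 differed most in the first list (-0.40 ± 0.09, adjusted p = 0.0026) and Mki67 in the second (-0.78 ± 0.07, adjusted p = 5.66e-07).

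Between genotypes 2 of 17 S phase genes and 2 of 12 mitosis genes were lower and none was higher, counts that lay near the 13.3% of all genes called lower, with medians of -0.03 and -0.10 against -0.0116 over all genes. The largest of these were Ccna2, the cyclin of S phase (-0.20 ± 0.06, adjusted p = 0.0328), and Plk1 (-0.33 ± 0.08, adjusted p = 0.00522). In culture all 17 and all 12 fell, with medians of -0.67 and -0.90 against -0.0233, led by Rrm2 (-1.33 ± 0.08), Pcna (-1.21 ± 0.07), Ccnb1 (-1.12 ± 0.08), Aurkb (-1.09 ± 0.10) and Bub1 (-1.02 ± 0.08). The difference between the JTE and the genotype response was called lower for all 17 S phase genes (median -0.68), with Cdc6 at -1.25 ± 0.14 and Gins1 at -1.03 ± 0.17, and for 10 of 12 mitosis genes (median -0.49), with Mki67 at -0.82 ± 0.09.

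**Figure D5:**
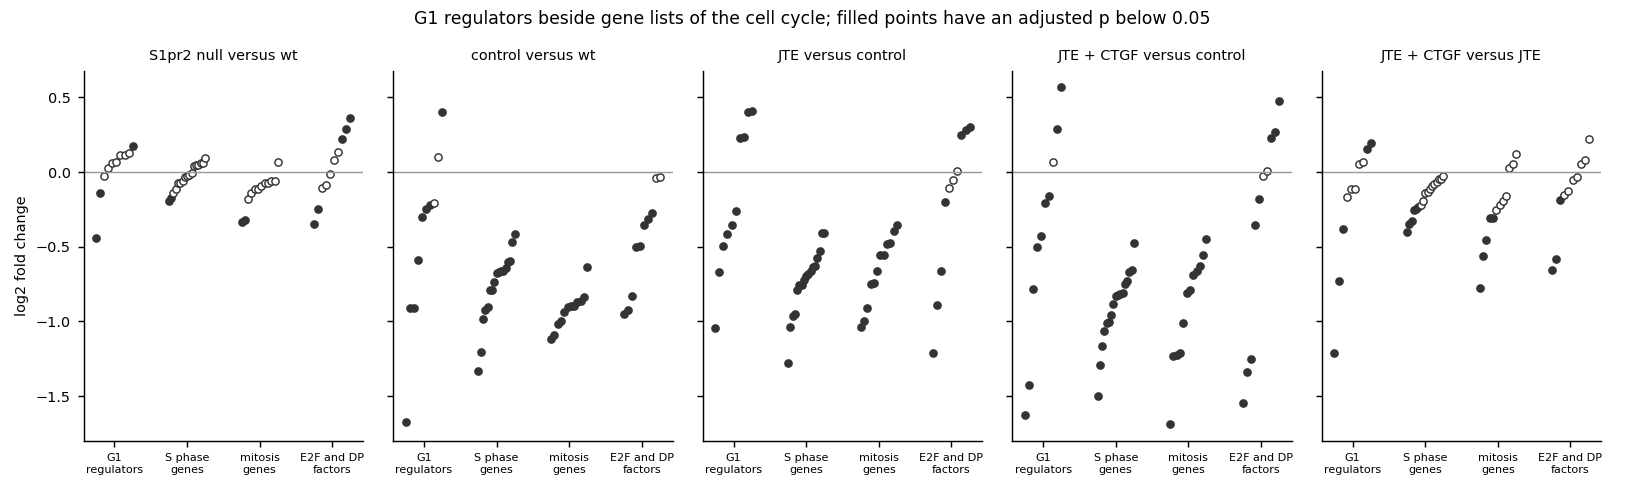
Log2 fold change of the 10 G1 regulators, 17 S phase genes, 12 mitosis genes and 10 E2F and DP factors in the 5 comparisons, sorted within each list; filled points have an adjusted p below 0.05. The S phase and mitosis genes all lie below 0 in culture and with each treatment against control, while the G1 regulators and the E2F and DP factors have values on both sides of 0 with each treatment.

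The E2F and DP factors sit between the pocket proteins and these targets. With JTE 3 of 10 rose and 4 fell, beside 25.9% and 26.2% of all genes (median -0.08 against 0). With JTE + CTGF 3 rose and 5 fell against control (median -0.10), and 3 were lower than with JTE and none higher (median -0.09). E2f2, an activating member, fell by 1.21 with JTE (± 0.14, adjusted p = 2.08e-06) and by 1.34 with JTE + CTGF (± 0.15, adjusted p = 6.41e-07). E2f7 (-1.54 ± 0.10) and E2f8 (-1.25 ± 0.10), which repress transcription, were also lower with JTE + CTGF, and E2f7 was lower than with JTE (-0.65 ± 0.10, adjusted p = 0.000154). Between genotypes 3 were higher and 2 lower (median 0.03), with E2f5 at 0.36 ± 0.10 (adjusted p = 0.0118). In culture 8 of 10 fell and none rose (median -0.42), with E2f2 at -0.95 ± 0.12. The JTE response minus the genotype response was called for 4, all negative (median -0.12), and most for E2f7 (-0.97 ± 0.11). Of these 4, Tfdp2 was not called with JTE (0.01 ± 0.05, adjusted p = 0.91). It was higher in S1pr2 null than in wt (0.22 ± 0.05, adjusted p = 0.00448).

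Of the pocket protein genes Rb1, Rbl1 and Rbl2, none was called between genotypes by edgeR (median 0.00393, lowest adjusted p = 0.189 for Rbl2). With JTE 2 rose (median 0.29), with Rbl2 at 0.40 ± 0.07 (adjusted p = 8.18e-05). With JTE + CTGF 2 rose and 1 fell against control (median 0.34), with Rb1 at 0.48 ± 0.08 (adjusted p = 0.000115), and 1 was lower than with JTE, Rbl1 (-0.39 ± 0.07, adjusted p = 0.000325). In culture 1 rose and 1 fell, Rbl1 (-0.68 ± 0.06). The 2 responses differed for 1, Rbl2 (0.52 ± 0.09).

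The other CDK inhibitors were Cdkn1a, Cdkn1c, Cdkn2a, Cdkn2b and Cdkn2d, of which Cdkn2a had at most 2 reads in any library and was not tested. Between genotypes 1 was higher and 2 lower (median -0.23), and the largest was Cdkn2b, the gene of p15, with 2.77 ± 1.06 (SD, n = 3) normalised reads in S1pr2 null against 11.5 ± 0.851 in wt (adjusted p = 0.00299), which is few reads. In culture 1 was higher, Cdkn2b at 65.5 ± 14.2 reads in control (log2 fold change 2.50 ± 0.26), and 1 was lower. With JTE 1 rose and 1 fell, Cdkn2b (-1.35 ± 0.23, adjusted p = 0.000121). With JTE + CTGF 1 rose and 1 fell against control, Cdkn2b (-0.61 ± 0.22, adjusted p = 0.0243), which lay above JTE (0.74 ± 0.25, adjusted p = 0.0313) as the only one called there. The responses to JTE and genotype differed for 2, most for Cdkn1a, the gene of p21 (0.68 ± 0.11, adjusted p = 0.000137).

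Of 9 genes of CDK activation and of the turnover of G1 regulators, 1 was higher and 4 lower with JTE, beside 25.9% and 26.2% of all genes. The median of the 9 was 0.08 against 0 over all genes, so it differed in sign from the balance of the calls. Cks1b fell most (-0.36 ± 0.06, adjusted p = 5.87e-05). The same numbers held for JTE + CTGF against control (median -0.06), with Ccnh, the cyclin of the CDK-activating kinase, at 0.53 ± 0.07. Against JTE 2 were higher and 3 lower, Ambra1, of the ligase that degrades D type cyclins, most (-0.38 ± 0.06, adjusted p = 0.000162). Skp2, of the ligase that degrades p27, was the only one called between genotypes (0.17 ± 0.06, adjusted p = 0.0466). It fell most of the 6 that fell in culture (-1.27 ± 0.06), where none rose. The 2 responses differed for 4, most for Cdk7 (-0.43 ± 0.08).

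Myc and Mycn encode factors that bind the E-box. Mycn held 371.5 ± 29.2 normalised reads (SD, n = 3) in wt, 561 ± 13.8 in S1pr2 null, 300.4 ± 38.5 in control, 192 ± 25.6 with JTE and 190.0 ± 17.02 with JTE + CTGF. It was higher in S1pr2 null than in wt (0.59 ± 0.09, adjusted p = 0.000233) and lower than control with JTE (-0.64 ± 0.11, adjusted p = 9.53e-05) and JTE + CTGF (-0.66 ± 0.11, adjusted p = 6.41e-05). It was also lower in control than in wt (-0.31 ± 0.10, adjusted p = 0.0146), and its 2 responses differed by -1.24 ± 0.14 (adjusted p = 4.23e-06). Myc was not called in any comparison, with adjusted p from 0.056 between genotypes to 0.863, and group means of 1116 to 1439.

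Genes of like pattern were sought among 7149 genes of sufficient level, less the members among them. The genes whose log2 CPM ran most like that of Ccnd1 over the 15 libraries were Gins2 (Pearson's r = 0.996), Pclaf (0.996) and Rrm2 (0.995). For Ccne2 they were Eftud2 (0.993), Ncapg (0.992) and Fignl1 (0.991). These values describe 15 libraries in 5 groups that share the steps between groups, and they carry no test. Pclaf had mean normalised counts of 1449 in wt, 1306 in S1pr2 null, 489 in control, 229 with JTE and 191 with JTE + CTGF.

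Markers of the cell types in these samples also differed between groups, and their part in the changes of the members was not tested. With JTE 7 of 7 macrophage and leukocyte markers were lower, at 89.0 to 106.6 summed CPM (counts scaled by library size) against 319 to 357 in control, as were 5 of 5 of smooth muscle (34.6 to 39.6 against 105.6 to 115), 6 of 6 of endothelium (362 to 406 against 497 to 608), 7 of 7 endocrine (1531 to 1894 against 5602 to 6477) and 5 of 7 of epithelium (1883 to 2339 against 2869 to 3239). Of 7 mesenchymal markers 2 rose and 2 fell (11200 to 13740 against 10360 to 10880), of 6 neural and Schwann cell markers 1 rose and 1 fell, and of 7 acinar markers, 6 of them tested, 1 fell. With JTE 25.9% of all genes were called higher and 26.2% lower, and counts of 1 or 2 markers in a list are not far from these shares. The same 5 lists had 7, 5, 6, 7 and 5 lower markers with JTE + CTGF against control, where 5 of 7 erythroid markers were higher. There 28.1% of all genes were called higher and 33.0% lower. Between JTE + CTGF and JTE no macrophage, smooth muscle or neural marker was called, while 4 of 7 erythroid markers were higher (105.8 to 179.4 against 17.8 to 48.7 CPM). In that comparison 13.6% of all genes were called higher and 16.8% lower.

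Between genotypes 5 acinar markers (2092 to 2266 CPM in S1pr2 null against 6130 to 10430 in wt), 7 of 7 endocrine (1033 to 1185 against 2165 to 2424) and 6 of 7 of epithelium (1451 to 1537 against 2004 to 2163) were lower. Of 7 mesenchymal markers 2 were higher and 3 lower (8674 to 10240 against 10870 to 11050 CPM), and of 7 erythroid markers 1 was higher and 3 lower (1200 to 1641 against 1122 to 1328). Of the other lists 1 endothelial marker was higher, and 1 macrophage, 1 neural and 1 smooth muscle marker were lower. Of all genes 12.6% were called higher and 13.3% lower between genotypes, and counts of 1 marker in a list are near these shares. In culture 7 of 7 erythroid markers were lower, from 1122 to 1328 CPM in wt to 13.7 to 35.3 in control, and 5 acinar, 6 macrophage, 5 epithelial and 4 endocrine markers were higher and none lower, while the mesenchymal, endothelial, neural and smooth muscle lists held calls in both directions. Of all genes 28.5% were called higher and 29.3% lower in culture. The acinar marker Amy2a5 was at or under 3 reads in every library of wt and S1pr2 null.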

How the data were processed

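Total poly(A) RNA was sequenced from 15 libraries of 14.5 dpc pancreata and of explants cultured for 2 days. The authors aligned single-end reads to mm10 with GSNAP, using Ensembl annotation, and deposited raw read counts per gene of uniquely aligned reads, made with featureCounts 1.4.6 and not normalised. Whether counting used the strand is not given in the sources used here. All columns were mapped to samples by their titles, and groups came from those titles. Symbols of GENCODE M21 were found for 97.9% of 25292 gene IDs.

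Counts were tested by edgeR 4.0.16 in R 4.3.3, fitting quasi-likelihood models with TMM factors, filterByExpr, all 15 libraries in 1 fit and 1 coefficient per group. P-values were adjusted by Benjamini-Hochberg over 16245 genes. The standard error is the log2 fold change divided by the square root of F. The biological coefficient of variation was 7.3%. Total counts of 11402804 to 13828737 reads leave counting error well below that spread for the members of high count. This does not hold for those of low count, such as Ccne2, Cdk6 and Cdkn2c at 78 to 419 reads. Shares used the exact permutation test, two-sided. The p-values measure the spread between pools of organs. Replicates were compared by chi-square, and none was a copy.

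The members, the 7 pathway lists, the 9 marker lists and the motifs were chosen with earlier results of these data known. All 10 members are given in every library, since their highest and lowest group means differed by at least 1.5 times. From a pathway list the text names, per comparison, the called genes with an absolute log2 fold change of at least 1, or the called gene of largest change where there was none. Genes of like pattern were sought for the 2 members of widest range, on log2(CPM + 0.5), among genes with a mean of at least 5. Alternatives were the size factors of DESeq2, total counts, DESeq2 1.42.0, no filter, the replicate block, a fit of the compared libraries alone, each library left out, and the criterion of the study. Figures used Python 3.11.15 with matplotlib 3.10.9. The value of 1 marker gene is not reported here.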

Additional observations from a re-analysis of the deposited data

Results flagged for a closer look

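The response to JTE and the response to the S1pr2 null genotype differed by the test of the difference itself for 7 of the 10 members. The log2 differences were -1.10 for Ccnd1, -0.78 for Ccne2, -0.38 for Cdk2, -0.38 for Cdk4, -0.39 for Cdk6, 0.24 for Ccnd3 and 0.54 for Cdkn1b. Of all genes tested 21.5% differed in each direction. Antagonist against allele cannot be told apart from cultured explant against fresh pancreas in this difference.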

How the results depend on the processing

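Of 1260 values of single members under alternatives, 1193 kept their direction and their side of the threshold; those that did not are given with the members, and the cause was not tested. By the criterion of the study, which also sets a fold limit, 0 members passed between genotypes, 1 with JTE and 3 with JTE + CTGF against control. It was passed by 1 member with JTE + CTGF against JTE and by 3 in culture. Of protein-coding genes 3.36%, 9.24%, 13.2%, 1.95% and 13.6% passed, in the same order. In the compared libraries alone 3 members were called for JTE + CTGF against JTE, as were 3584 of 14925 genes. Shares of raw counts gave -15.3 points for Ccnd1 in culture and -2.95 points for Cdk6 with JTE + CTGF against control. The log2 fold change of Cdk6 in culture was -0.046 with total counts. With 1 library left out, the calls of members ranged from 0 to 3 between genotypes and from 3 to 5 for JTE + CTGF against JTE. Over all genes these fits called from 2809 of 16471 (without wt 2) to 4729 of 16481 (without JTE 3) between genotypes. For JTE + CTGF against JTE they called from 3362 of 16486 (without JTE + CTGF 3) to 4978 of 16450 (without control 3). The main fit called 4199 and 4941 of 16245. The share of Ccnd1 between genotypes ranged from -1.76 to 0.056 points, and the share of Cdk6 from -0.287 to 0.038 between genotypes and from -0.445 to 0.156 for JTE. The log2 fold changes of Cdk6 between genotypes ranged from -0.097 to 0.030, of Ccne1 with JTE + CTGF against control from -0.015 to 0.186, of Cdkn2c against JTE from -0.040 to 0.144, and of Cdkn2c between responses from -0.131 to 0.108. Correlations of the deviations of same-numbered libraries of different groups ranged from -0.108 to 0.248, the highest for control 3 and JTE 3. Libraries of different numbers were not compared, so these values cannot decide whether libraries were paired. The main fit used no pairing. With the replicate block 2 members were called between genotypes, 10 with JTE and 9 with JTE + CTGF against control. It called 5 members against JTE, 8 in culture and 7 between responses. Of 16245 genes it called 4060, 8338, 9816, 4776, 9256 and 6860, in the same order. Among the members it took away only the call of Cdkn1b between genotypes (-0.14, adjusted p = 0.067). Depth limits Ccne2, Cdk6 and Cdkn2c most, at 78 to 419 reads.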
